A study of Mus musculus with 10 samples.

Results

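The genes described here are 10 surface or surface-associated markers by which mouse hematopoietic stem cells (HSCs) are recognised, Procr, Esam, Slamf1, Cd48, Cd34, Ly6a, Tek, Cd27, Eng and Fgd5, taken as a fixed list out of the 55359 genes of the deposited table. They were measured by RNA-seq in Lin- bone marrow cells, that is marrow depleted of cells carrying the antigens of mature blood lineages, in 5 libraries from Dhx9f/f mice (WT) and 5 from Dhx9f/f;MX1 mice (cKO), whose genotype field calls them a Dhx9 knock down. Both groups carry the floxed Dhx9 allele, and the cKO mice also carry Cre under the Mx1 promoter, which interferon or the RNA mimic poly(I:C) switches on in blood cells and in other interferon-responsive cells. The authors' methods state that mice with this Cre received repeated intraperitoneal doses of poly(I:C). Analysis came a week after the first dose unless the authors say otherwise. For the sequenced mice, age, strain, whether each library is 1 mouse and whether the WT mice were given poly(I:C) are not given in the sources used here, so p-values measure only the spread between these libraries, and an effect of poly(I:C) and one of the genotype cannot be told apart. The unit is FPKM, fragments per kilobase of gene in each library, scaled to its mapped total. It does not correct for differences in RNA make-up between libraries. Comparisons of levels between genes are approximate, since the gene lengths behind the values are not given in the sources used here.

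A mouse HSC is purified by combinations of antigens rather than by any one of them. The classical gate takes Lin- cells that carry Sca-1, the product of Ly6a, and the receptor tyrosine kinase c-Kit. Within it, CD150 (Slamf1) is kept and CD48 is rejected, since CD48 is absent from the most primitive cells and abundant on the progenitors and leukocytes derived from them. CD34 and CD27 are carried by multipotent progenitors and by part of the HSC pool, whereas EPCR (Procr), ESAM, TIE2 (Tek), endoglin (Eng) and FGD5 are shared by HSCs and blood vessel endothelium. Because HSCs are a small minority of Lin- cells, a level in this bulk RNA can come largely from other cells that carry the same transcript.

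The libraries held between 13837000 and 18704000 fragments, read from the steps of the FPKM values. Dhx9, the targeted gene, was at 69.7 ± 2.84 FPKM in WT and at 140 ± 12.0 in the libraries labelled cKO (SD, n = 5 each), which goes against the labels, although a value for the whole gene does not show which exons its fragments came from. Every direction below is therefore that of the libraries labelled cKO. Xist was above 1 FPKM in WT 3, 4 and 5 and in none of the others, so sex and label are partly confounded. As a check on the depletion, listed T and NK cell genes ran in WT from Cd3e, which encodes a chain of the T cell receptor complex, at 0.098 FPKM to Nkg7 at 82.6. Listed B-lymphoid genes ran from Ms4a1 at 0.092 to Cd79b at 9.87. Hbb-bs, which encodes a beta globin, was at 158 FPKM, so transcripts of erythroid cells were present.

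In WT, Cd48 was the highest of the 10 genes, followed by Cd34, Eng, Cd27, Esam, Slamf1, Ly6a, Tek, Procr and Fgd5. The ranges over libraries overlapped between neighbours for Cd34 and Eng, Esam and Slamf1, Slamf1 and Ly6a, Tek and Procr, and Procr and Fgd5. The order among the libraries labelled cKO was Cd48, Eng, Cd34, Ly6a, Slamf1, Tek, Esam, Cd27, Procr and Fgd5. There Cd48 stood clear of Eng, Eng clear of Cd34, and Cd27 clear of Procr, with overlapping ranges between all other neighbours. Cd27 thus moved from the fourth to the eighth place and Esam from the fifth to the seventh.

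Between the groups, 6 of the 10 genes passed as lower and 0 as higher with the label cKO, where a call needed both an adjusted p under 0.05 from limma and a 2-fold change. Over all 18742 genes tested, 16.8% were called lower and 4.6% higher. The 6 were Cd27, Cd34, Esam, Procr, Slamf1 and Fgd5. At an unadjusted p under 0.05 as well, no gene of the list was higher. All 10 genes passed the filter on low values, and their median log2 fold change was -1.41, against -0.11 over all genes tested. The filter took the mean over both groups. Procr and Fgd5 passed it only through WT, their cKO means being 0.048 and 0.028 FPKM, and both are among those called lower. With no filter 6 genes were also called lower. The 5 libraries of one label lay wholly below the 5 of the other for 6 genes, namely Cd27, Cd34, Esam, Procr, Fgd5 and Tek, whereas 21.6% of all genes were separated in that direction and 10.6% in the other. In RNA from a mixed population, fewer cells of a type and less RNA per cell cannot be told apart.

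**Figure D1:**
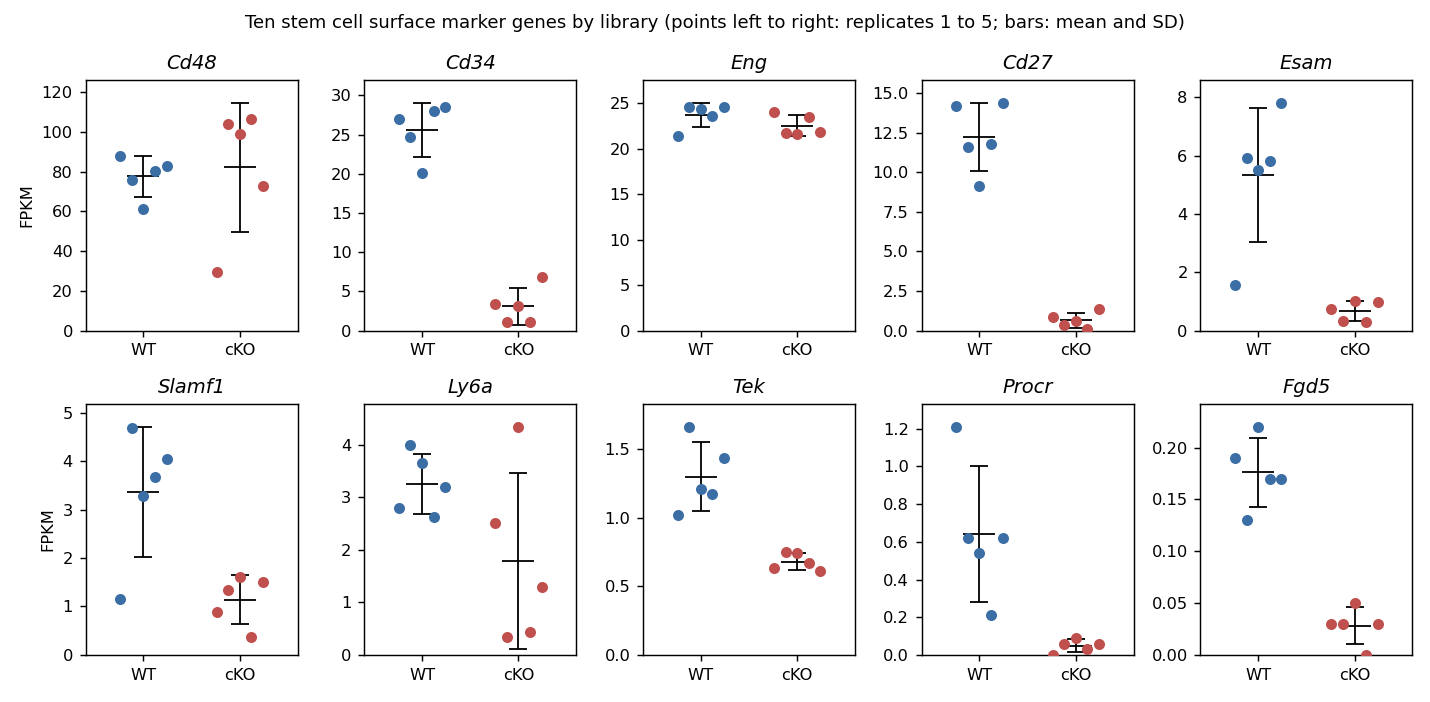
Level of each of the 10 marker genes in FPKM on a linear axis from 0, with 1 point per library (replicates 1 to 5 from left to right), and the mean and SD of 5 libraries per group as bars. Cd27 and Cd34 were far apart between groups, Cd48 and Eng overlapped, and Ly6a was spread from 0.34 to 4.34 FPKM among the libraries labelled cKO.

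**Figure D2:**
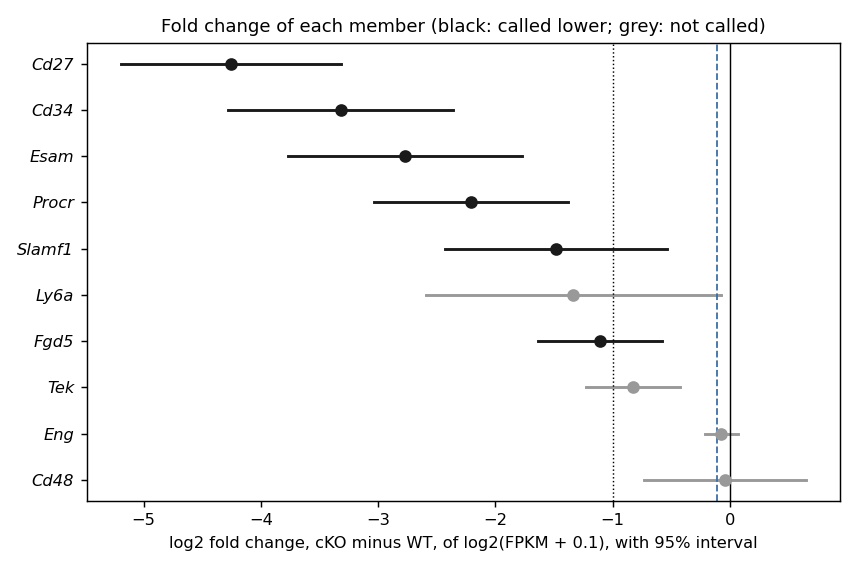
Fitted log2 fold change of each marker gene, cKO minus WT on the log2(FPKM + 0.1) scale, with its 95% interval from limma; the dotted line marks a fold change of 2, the solid line 0 and the dashed line the median of all genes tested, -0.11. The 6 genes called lower are in black.

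Cd27 had the largest fold change of the 10 genes. It encodes a receptor of the TNF receptor superfamily that binds CD70, and lies at chr6:125209585-125213988 of GRCm39 on the minus strand (ENSMUSG00000030336). Its level was 14.18, 11.58, 9.14, 11.82 and 14.42 FPKM in WT 1 to 5 and 0.87, 0.37, 0.62, 0.12 and 1.35 in cKO 1 to 5. The highest library labelled cKO was thus far below the lowest WT library, and the cKO mean was 5.45% of the WT mean. Limma gave a log2 fold change of -4.26 ± 0.43 (SE) at an adjusted p of 6.99e-05, and the two-sided exact permutation p was 0.00794, as small as a design of 5 against 5 can give. The gene lies within the span of Vamp1 on the other strand, which was at 4.14 and 1.92 FPKM, and the strandedness of the libraries is not given in the sources used here. None of the 3 listed partners of CD27 that were tested was called in either direction. Among them, Siva1 and Traf2, which encode proteins that act downstream of the receptor, had log2 fold changes of 0.16 and 0.27. Traf5, another adaptor of the pathway, was at -0.50 and passed the test (adjusted p = 0.0263 by limma) but not the fold limit. Cd70, the ligand, was at 0 in each WT library and averaged 0.076 FPKM in those labelled cKO.

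Cd34 encodes a sialomucin of the progenitor and endothelial surface (chr1:194621029-194647172, plus strand, ENSMUSG00000016494). It was at 26.94, 24.64, 20.1, 27.98 and 28.57 FPKM in WT 1 to 5 and at 3.41, 1.12, 3.13, 1.05 and 6.78 in cKO 1 to 5. The groups did not overlap, but the libraries labelled cKO spread much more widely relative to their mean, with cKO 5 the highest and cKO 2 and 4 the lowest. The means were 25.6 ± 3.44 and 3.10 ± 2.33 FPKM (SD, n = 5 each). This was a log2 fold change of -3.32 ± 0.43 (SE) with an adjusted p of 2.08e-04 by limma, and the exact permutation p was again 0.00794. Gm16897, an antisense lncRNA that overlaps Cd34, went from 0.91 to 0.104 FPKM, and without strand its fragments and those of Cd34 cannot be told apart.

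A close relative of CD34 moved in the opposite direction. Podxl, which encodes the sialomucin podocalyxin of the same family, was called higher, from between 0.21 and 5.41 FPKM in WT to between 40.6 and 152.9 in the libraries labelled cKO (6.69 ± 0.70 on the log2 scale, SE, adjusted p = 8.57e-05 by limma). In WT, Cd34 exceeded Podxl in every library, whereas in each library labelled cKO the order of the levels was the reverse. The other relative listed, Podxl2, was below the filter.

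Slamf1 and Cd48 are neighbours on chromosome 1 and encode the SLAM family receptors CD150 and CD48. Cd48 lies at chr1:171509573-171532826 (ENSMUSG00000015355) and Slamf1 at chr1:171594695-171628764 (ENSMUSG00000015316), both on the plus strand, with their starts 85.1 kb apart. The 200 bases upstream of the start of the annotated canonical transcript of each gene, and of Cd34 for comparison, are shown because the pair stand side by side and had different readouts. They are read from GRCm39 at chr1:171509373-171509572, chr1:171594495-171594694 and chr1:194620927-194621126, 5′ to 3′ on the plus strand. Capitals mark GGAAGT, a core bound by ETS factors, and TGTGGT, a core bound by RUNX factors, each searched on both strands. The matches do not overlap one another, and the window of Cd34 reaches into the annotated gene because a longer transcript starts upstream.
Cd48: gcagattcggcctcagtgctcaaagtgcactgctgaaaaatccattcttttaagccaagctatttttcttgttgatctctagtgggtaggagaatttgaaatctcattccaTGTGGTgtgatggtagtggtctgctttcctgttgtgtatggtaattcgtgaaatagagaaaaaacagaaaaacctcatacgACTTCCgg
Slamf1: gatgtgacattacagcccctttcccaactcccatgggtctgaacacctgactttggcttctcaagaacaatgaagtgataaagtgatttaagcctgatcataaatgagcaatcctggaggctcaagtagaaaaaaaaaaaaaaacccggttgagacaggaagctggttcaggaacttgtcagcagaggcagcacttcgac
Cd34: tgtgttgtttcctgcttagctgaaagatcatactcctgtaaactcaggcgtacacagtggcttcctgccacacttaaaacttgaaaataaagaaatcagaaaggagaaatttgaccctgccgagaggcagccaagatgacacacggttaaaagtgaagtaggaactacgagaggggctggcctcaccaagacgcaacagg
Of 12877 such windows of protein-coding genes tested, 18.3% held GGAAGT and 9.76% held TGTGGT. Among the 10 markers, Cd48 and Ly6a held the former and Cd48 the latter, and no match says only that these letters are not in this window. Variants of these letters were not searched. GGAAGC, which differs from GGAAGT in its last letter, stands on one strand or the other in the windows of Slamf1 and Cd34.

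Slamf1 was at 1.16, 4.69, 3.28, 3.67 and 4.04 FPKM in WT 1 to 5 and at 0.88, 1.35, 1.6, 0.38 and 1.5 in cKO 1 to 5. The groups overlapped through WT 1 alone, which was below 3 of the libraries labelled cKO. Slamf1 was called lower at -1.48 ± 0.43 on the log2 scale (SE, adjusted p = 0.0158 by limma), and its exact permutation p was 0.0317. Without WT 1 the value was -1.82 (adjusted p = 0.00361). Against the 2 WT libraries without Xist alone it was -1.12 (adjusted p = 0.262), no longer called, and with Xist as a covariate the adjusted p was 0.165.

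Cd48 showed no such fall. It was at 88.15, 75.98, 61.09, 80.6 and 82.81 FPKM in WT 1 to 5 and at 29.41, 104.01, 98.99, 106.63 and 72.8 in cKO 1 to 5. The ranges overlapped, with cKO 1 the lowest of all 10 libraries and cKO 2, 3 and 4 above every WT library. Its log2 fold change was -0.04, with a 95% interval from -0.74 to 0.65 (adjusted p = 0.925 by limma), and the exact permutation p was 0.968. Its sign turned without cKO 1, to 0.29 (adjusted p = 0.102), and under median-ratio scaling, to 0.06. In cKO 1, 6 of 9 listed neutrophil genes were at their highest among the libraries labelled cKO, against 29.2% of all genes tested, and Ngp was at 317.58 FPKM there and between 2.41 and 66.44 in the other 4. The part of these cells in the Cd48 value was not tested. Slamf1 per 100 FPKM of Cd48 ranged from 1.32 to 6.17 in WT and from 0.356 to 2.99 in the libraries labelled cKO, overlapping through WT 1.

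Other genes of the SLAM family fell on both sides of Cd48. Of the 9 listed family members and partners tested, 8 were called lower and 0 higher, and the median of the 9 was -1.91 on the log2 scale. Slamf6 and Slamf8, both among the 8, passed the filter on low values only through WT. Their cKO means were 0.064 and 0.036 FPKM. Cd244a, which encodes 2B4, the receptor for CD48, was at 7.06 ± 1.79 FPKM in WT and 0.91 ± 0.716 in the libraries labelled cKO (log2 fold change -3.12). Ly9, Slamf7, Cd84 and Slamf6, which with Cd244a lie within 400 kb of Cd48, had log2 fold changes of -2.07, -1.87, -1.99 and -1.25. Sh2d1b1, which encodes an adaptor that docks on SLAM receptors, had one of -2.53, and Slamf9 was not called at -0.79. Of the 20 protein-coding genes tested within 400 kb of Cd48, itself included and of any family, 11 were called lower and 0 higher. Over all genes tested, 16.8% were called lower and 4.6% higher. Slamf6 and Nectin4, both among the 11, passed the filter only through WT.

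**Figure D3:**
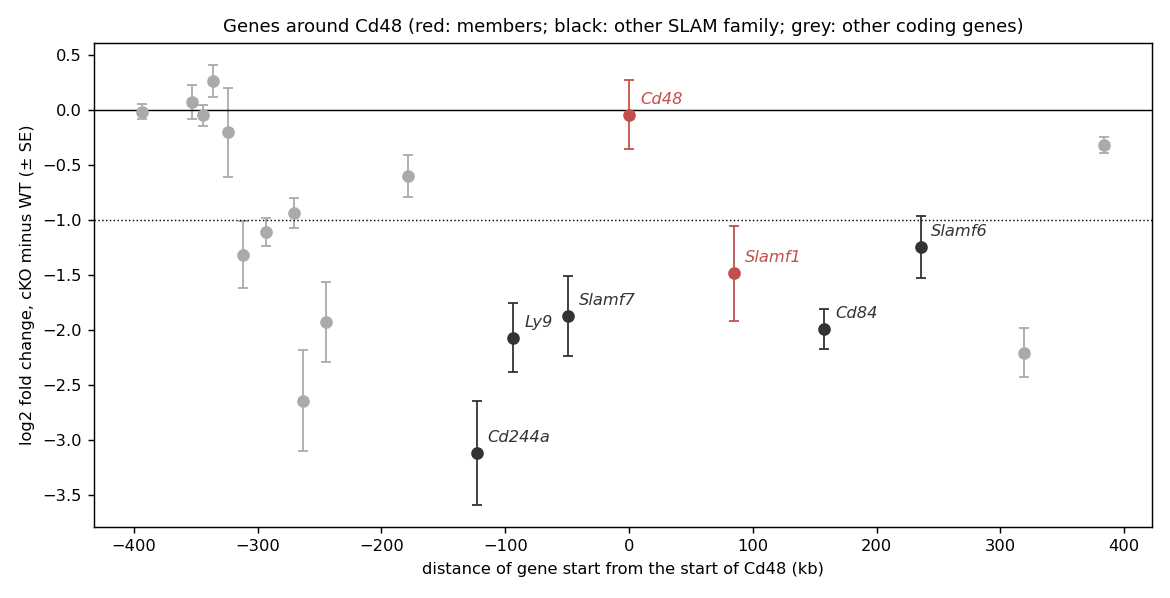
Log2 fold change with its standard error for each protein-coding gene tested within 400 kb of Cd48, against the distance of its start from that of Cd48 in kb. Cd48 lay at -0.04, and the SLAM family genes on either side of it lay between -3.12 and -1.25.

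Esam encodes an adhesion molecule of the tight junction class that HSCs share with endothelium and platelets (chr9:37439344-37449615, plus strand, ENSMUSG00000001946). It was at 1.55, 5.93, 5.5, 5.8 and 7.82 FPKM in WT 1 to 5 and at 0.73, 0.34, 1, 0.3 and 0.99 in cKO 1 to 5. The groups did not overlap, though WT 1 stood much nearer to the libraries labelled cKO than to the other WT libraries. By limma, Esam changed by -2.77 ± 0.45 on the log2 scale (SE, adjusted p = 6.49e-04), with an exact permutation p of 0.00794, and by -3.16 without WT 1. Against only the 2 WT libraries without Xist, of which WT 1 is one, it was -2.16 with an adjusted p of 0.0498. F11r, which encodes the related junctional molecule JAM-A, was also called lower, from 2.96 ± 1.15 to 0.658 ± 0.241 FPKM. Jam3 was not called, with a log2 fold change of 0.55, and Jam2 and Magi1, which encodes an intracellular partner of ESAM, were below the filter.

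Megakaryocyte genes were lower with the label cKO, as Esam and Slamf1 were, and were likewise lowest of WT in WT 1. All 11 listed megakaryocyte genes were called lower, and their summed level was between 279 and 1369 FPKM in WT and between 85.3 and 188 in the libraries labelled cKO. Each of the 11 was at its lowest WT level in WT 1, as were 19.0% of all genes tested, and this was also so for 4 of the 10 markers, Esam, Slamf1, Tek and Eng. Pf4, which encodes platelet factor 4, was at 107.99 FPKM in WT 1 and between 253.74 and 416.35 in the other 4 WT libraries. Among the libraries labelled cKO the orders parted. The summed megakaryocyte level was highest in cKO 1, at 188 FPKM, and was 117 in cKO 3. Esam and Slamf1 were highest in cKO 3, at 1 and 1.6 FPKM, and were at 0.73 and 0.88 in cKO 1. The part of megakaryocytes in the values of Esam and Slamf1 was not tested.

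Procr encodes the endothelial protein C receptor, EPCR (chr2:155593031-155597397, plus strand, ENSMUSG00000027611). Its level was low, at 1.21, 0.62, 0.54, 0.21 and 0.62 FPKM in WT 1 to 5 and at 0, 0.06, 0.09, 0.03 and 0.06 in cKO 1 to 5. These values correspond to about 8 to 41 fragments in WT and 0 to 3 in the libraries labelled cKO, where 3 fragments, taken as the floor, are worth 0.079 to 0.11 FPKM. Summed over libraries and set against depth, the ratio of WT to cKO was 12.5 with a 95% interval from 6.13 to 29.8, which covers counting error only. On the log2 scale the fitted change was -2.21 ± 0.37 (SE, adjusted p = 8.10e-04 by limma), and the exact permutation p was 0.00794. It moved to -3.64 when 0.01 was added to each value and to -0.62, no longer called, when 1 was added. Thbd, which encodes thrombomodulin, the cofactor by which thrombin activates protein C, was called lower as well, from 6.23 ± 0.831 to 0.696 ± 0.523 FPKM. F2r, which encodes the thrombin receptor PAR1, passed at an adjusted p of 0.00699 by limma but not the fold limit, at a log2 fold change of 0.76. F2rl1, F3 and Proc were below the filter.

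Fgd5 encodes an exchange factor for the small GTPase CDC42 and is used as an HSC reporter locus (chr6:91955791-92052987, plus strand, ENSMUSG00000034037). It was the lowest of the 10 genes, at 0.19, 0.13, 0.22, 0.17 and 0.17 FPKM in WT 1 to 5 and at 0.03, 0.03, 0.05, 0 and 0.03 in cKO 1 to 5. The groups did not overlap, although the latter values stand for 0 to 5 fragments each, at or near the floor of 0.025 to 0.034 FPKM. An antisense lncRNA that overlaps Fgd5, 4930466I24Rik, was at 0.084 FPKM in WT and at 0 in the libraries labelled cKO, and its fragments cannot be told apart from those of Fgd5 without strand. The summed fragments gave a ratio of WT to cKO of 6.21 (95% interval 3.52 to 11.8, counting error only). Because its level is close to the pseudocount, the fitted change of -1.11 ± 0.24 on the log2 scale (SE, adjusted p = 0.00329 by limma, exact permutation p = 0.00794) moved to -2.48 when 0.01 was added to each value and to -0.19 when 1 was added. Of its 5 listed relatives and Cdc42, 3 were called lower and 0 higher. Fgd2 and Fgd4 had log2 fold changes of -3.64 and -3.05 from WT levels of 7.68 and 2.77 FPKM, far above that of Fgd5, whereas Fgd6 was at 0.99 and not called.

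Tek encodes TIE2, the receptor for angiopoietins (chr4:94627291-94763224, plus strand, ENSMUSG00000006386). It was at 1.02, 1.66, 1.21, 1.17 and 1.43 FPKM in WT 1 to 5 and at 0.63, 0.75, 0.74, 0.67 and 0.61 in cKO 1 to 5. All libraries labelled cKO were below all WT libraries, and they were also closer to one another, with an SD of 0.063 against 0.25. Limma put the change at -0.83 ± 0.18 on the log2 scale (SE, adjusted p = 0.00375), and the exact permutation p was 0.00794, so Tek passed the test of the difference but not the fold limit. It did not pass after quantile normalization (-0.33, adjusted p = 0.222) or against only the WT libraries without Xist (adjusted p = 0.0699). TIE2 acts with its ligands and with a sister receptor. Angpt1, the activating ligand, was called lower, from 16.3 ± 2.10 to 3.60 ± 1.22 FPKM, and Tie1, the sister receptor, from 3.32 ± 0.762 to 0.408 ± 0.228. Angpt2 was at 0.22 and 0.184 FPKM and was not called.

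Eng encodes endoglin, an auxiliary receptor for ligands of the TGF-beta family (chr2:32535543-32574661, plus strand, ENSMUSG00000026814). It was at 21.38, 24.6, 24.35, 23.62 and 24.6 FPKM in WT 1 to 5 and at 24.03, 21.7, 21.6, 23.49 and 21.85 in cKO 1 to 5. The ranges overlapped, and limma gave -0.07 on the log2 scale, with a 95% interval from -0.21 to 0.06 and an adjusted p of 0.375 (exact permutation p = 0.159). That interval was the narrowest of the 10 genes. Fpgs, a protein-coding gene on the other strand that overlaps an end of Eng, was at 15.6 FPKM in WT and 22.7 in the libraries labelled cKO, and without strand the fragments of the overlap cannot be told apart. Median-ratio scaling turned the sign, to 0.03, and without WT 1 and cKO 1 the groups no longer overlapped, at -0.13 (adjusted p = 0.0375, limma). Among its 7 listed partners, Acvrl1, which encodes the type I receptor ALK1, was called lower, from 0.796 ± 0.186 to 0.206 ± 0.165 FPKM. Bmpr1a was called higher, at 0.03 and 0.174 FPKM, but it passed the filter on low values only through the libraries labelled cKO. Its ranges overlapped, from 0.01 to 0.07 in WT and from 0.04 to 0.26 in those libraries. Tgfbr1, Tgfbr2 and Tgfb1 passed the test at log2 fold changes of -0.69, -0.93 and -0.60, and Tgfbr3, which encodes betaglycan, a coreceptor related to endoglin, passed at 0.94, all inside the fold limit.

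Ly6a, which encodes Sca-1 (chr15:74863840-74869880, minus strand, ENSMUSG00000075602), differed widely between the libraries labelled cKO. It was at 2.79, 4, 3.65, 2.62 and 3.2 FPKM in WT 1 to 5 and at 2.52, 0.34, 4.34, 0.44 and 1.3 in cKO 1 to 5. The highest of all 10 libraries was cKO 3, and cKO 2 and 4 were the lowest. Ly6a was not called, at -1.34 on the log2 scale with a 95% interval from -2.60 to -0.08 (adjusted p = 0.0787 by limma, exact permutation p = 0.0952). Without cKO 3 it was called, at -1.78 (adjusted p = 0.0144), and over all single libraries left out the adjusted p ranged from 0.0144 to 0.176. Genes of this cluster are close in sequence, so fragments may have been shared out between them in ways the sources used here do not state.

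Ly6a is a target of interferon in many cells, and interferon response genes were spread over the same libraries. Of 16 listed interferon response genes, 14 were higher in both cKO 1 and cKO 3 than in the other 3 libraries labelled cKO, a pattern also shown by 10.2% of all genes tested. Isg15 was at 36.18, 6.04, 69.13, 3.72 and 3.22 FPKM in cKO 1 to 5, and Rtp4 at 23.09, 1.28, 14.85, 0.25 and 1.15. Ly6a was the only one of the 10 markers with this order. A looser order, cKO 2 and 4 below cKO 1, 3 and 5, was shown by 4 of the 10 markers, Ly6a, Cd34, Cd27 and Esam. It was also shown by 5 of 8 monocyte and dendritic genes and by 17.2% of all genes tested. Between the groups, 2 of the 16 were called lower and 0 higher, where 16.8% and 4.6% of all genes tested were. The part of interferon in the Ly6a value was not tested.

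Of the 28 protein-coding genes within 600 kb of Ly6a, 11 were tested, itself included, with 6 called lower and 0 higher. Over all genes tested, 16.8% were called lower and 4.6% higher. Lynx1, Ly6k and Gml2, all among the 6, passed the filter on low values only through WT. Their cKO means were 0.03, 0.03 and 0 FPKM. Of the 6 listed genes of the cluster that were tested, 4 were called lower, Ly6k among them, and 0 higher. Of the 10 listed, 4 were below the filter. Ly6c2, which encodes the Ly6C antigen of monocytes and progenitors, went from 245 ± 59.6 to 25.8 ± 25.8 FPKM (log2 fold change -4.01). Ly6e, the most abundant of them after Ly6c2 in WT, was at 223 and 135 FPKM and passed the test but not the fold limit, at a log2 fold change of -0.72.

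**Figure D4:**
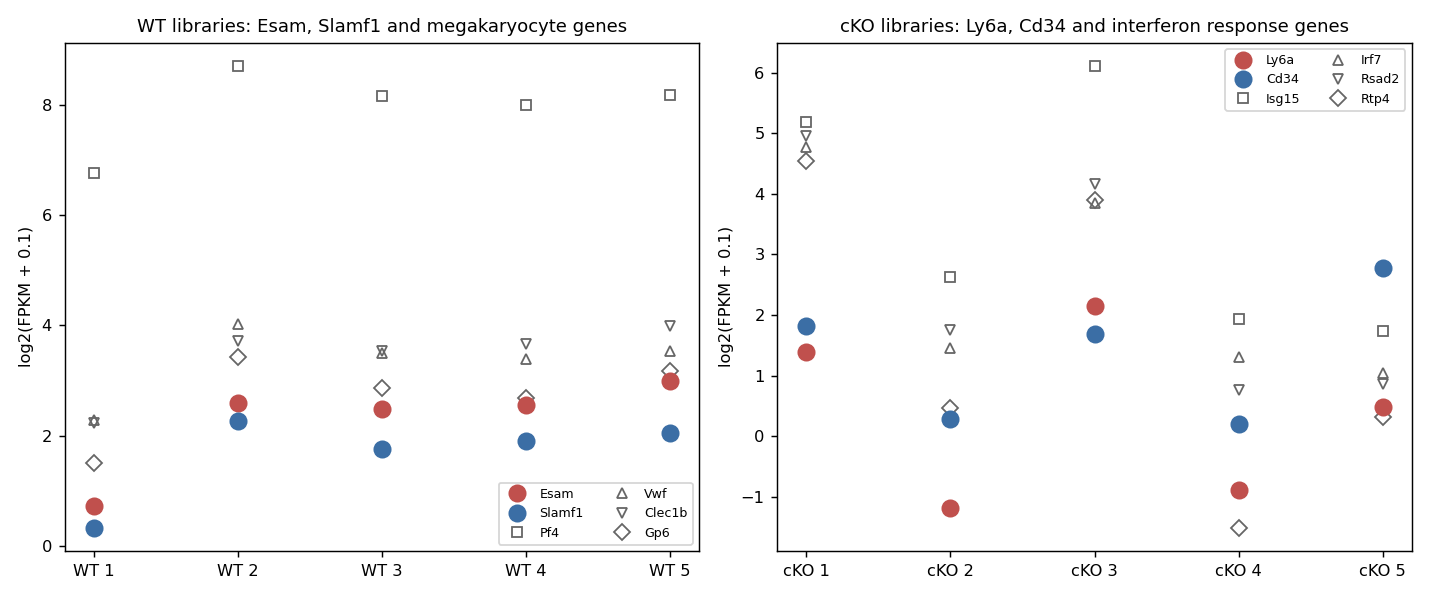
Levels on the log2(FPKM + 0.1) scale in each WT library (left) and each library labelled cKO (right). On the left, Esam and Slamf1 (filled) and 4 megakaryocyte genes were all at their lowest in WT 1; on the right, Ly6a and 4 interferon response genes were at their highest in cKO 1 and 3, whereas Cd34 was highest in cKO 5.

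Antigens that are read together with these markers also changed. Of 10 further antigens used to gate stem and progenitor cells, 8 were called lower and 0 higher, and the median of the 10 was -1.86 on the log2 scale. Over all genes tested, 16.8% were called lower and 4.6% higher. Kit was at 45.9 ± 7.83 FPKM in WT and 25.5 ± 5.57 in the libraries labelled cKO, a log2 fold change of -0.86 that passed the test (adjusted p = 0.0017, limma) but not the fold limit. Flt3, which encodes the receptor that marks lymphoid-primed progenitors, went from 20.8 ± 4.39 to 1.96 ± 2.27 FPKM. Ptprc, which encodes the pan-leukocyte antigen CD45, went from 13.5 ± 2.98 to 4.11 ± 1.20 FPKM. Thy1 was not called, at a log2 fold change of -0.39.

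**Figure D5:**
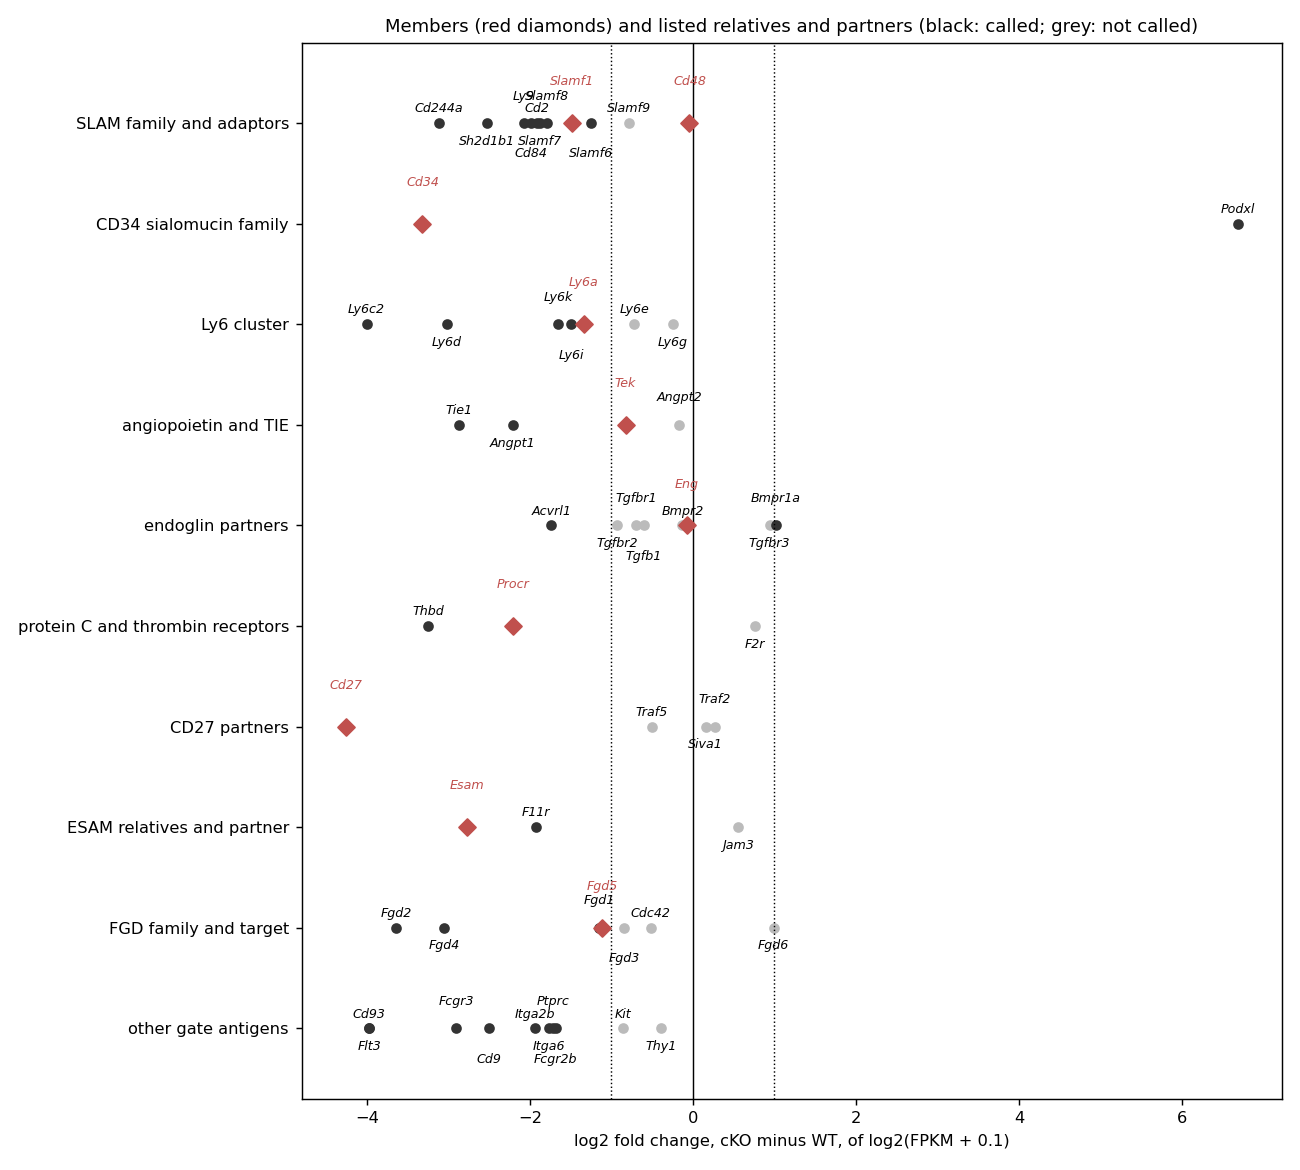
Log2 fold change, cKO minus WT, of the 10 markers (diamonds) and of the tested genes of the lists of relatives, partners and other gate antigens (dots), one list per row, with dotted lines at a fold change of 2. Podxl, at 6.69, was the farthest to the right, and most SLAM family genes and gate antigens lay left of -1.

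Because several of the markers are shared with endothelium, genes of the marrow stroma and vessels were examined. Of 13 endothelial genes, 7 were called lower and 0 higher, and their summed level was between 40.0 and 46.2 FPKM in WT and between 16.9 and 24.6 in the libraries labelled cKO. Cdh5, which encodes VE-cadherin, was at 0.388 and 0.104 FPKM and Emcn, which encodes endomucin, at 0.28 and 0.026, both below Esam, Eng and Tek. Pecam1, Erg, Egfl7 and Plvap, which blood cells can also express, were above Tek in WT, at 18.8, 12.4, 6.10 and 3.39 FPKM. Pecam1 and Erg were called lower, whereas the cKO means of Egfl7 and Plvap were 11.8 and 2.39 FPKM and neither was called, Egfl7 having passed the test (adjusted p = 0.00305 by limma) but not the fold limit. Of 10 stromal genes, 7 were tested, with 4 called lower and 1 higher, and a summed level between 5.66 and 14.6 FPKM in WT and between 3.32 and 10.1 in the others. In the other lineage lists, 8 of 8 monocyte and dendritic genes, 6 of 6 mast cell and basophil genes, 4 of 9 neutrophil genes, 5 of 10 T and NK cell genes and 2 of 4 tested B-lymphoid genes were called lower. Of 10 erythroid genes, 5 were called higher, and their summed level went from between 987 and 2189 FPKM to between 2891 and 4282. Among the genes called lower, Emcn, Kitl, Ncr1 and Igll1 passed the filter on low values only through WT. Over all genes tested, 16.8% were called lower and 4.6% higher. The part of these cell types in the marker values was not tested.

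For each marker with a mean of at least 1 FPKM, the genes most alike in how they varied within groups were sought among 10343 protein-coding genes of that level, by Pearson's r of deviations from the group means over 10 libraries. The libraries share their depth, sex and cell make-up, so these are descriptions. Cd34 was most like Erg, Eepd1 and Cd93 (r from 0.992 to 0.993), and Cd27 like Cerk, Hlf and Satb1 (0.987 to 0.992). Erg, an ETS factor of HSCs and endothelium, was at 12.4 ± 1.57 and 2.10 ± 1.19 FPKM, and Hlf, a transcription factor enriched in HSCs, at 3.11 ± 0.319 and 0.428 ± 0.298. Esam was most like Prkca, Clec1b and Draxin (0.929 to 0.931), and Slamf1 like Dnase1, Cavin1 and Tubb1 (0.953 to 0.954), of which Clec1b and Tubb1 are genes of platelets and their precursors. Cd48 was most like Nfkb1, Ccdc112 and Ctsc (0.977 to 0.988), Ly6a like Lck, Trim34a and Tmem86a (0.943 to 0.949), and Eng like Atox1, H4c18 and Adat2 (0.892 to 0.948).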

How the data were processed

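Total RNA of Lin- bone marrow cells was sequenced in paired ends in 5 WT and 5 cKO libraries. The authors trimmed and quality-filtered the reads, aligned to GRCm39 with HISAT2 2.0.1 and deposited a table of FPKM values, given to hundredths, with a row per gene and a column per library. The submitters' processing notes also name cutadapt 1.9.1 and HTSeq 0.6.1. The gene lengths and annotation behind the FPKM are not given in the sources used here. Depth was read from genes with a single transcript, where 95.7% to 96.2% of the low values came out whole within 0.2 of a fragment, against 40% by chance. Fragment numbers of named genes use GENCODE exon lengths and are approximate. At 3 fragments, the floor, intervals cover counting error only.

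The authors tested with DESeq2, which needs counts and was not run on FPKM. The test was limma 3.58.1 in R 4.3.3 (lmFit, eBayes with trend, two-sided) on log2(FPKM + 0.1). It covered the 18742 genes averaging 0.1 FPKM or more over all libraries, with Benjamini-Hochberg adjustment over all of them. A low gene could pass this filter through a single group. Fold changes on this scale understate the change of low genes. A call needed an adjusted p below 0.05 together with a 2-fold change. Each marker was also tested by an exact permutation test over 252 splits. Alternatives changed the pseudocount (0.01, 1), the filter (none, or an average of 1 FPKM), the scaling (median-ratio, quantile) and the call (adjusted p without the fold limit). Others dropped the trend, blocked on replicate number, left out single libraries, kept only libraries with Xist under 1 FPKM, or took Xist as a covariate. Leaving out WT 1 and cKO 1 together was chosen after seeing the data.

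The 10 markers and the lists of relatives, partners, gate antigens, interferon response genes and cell types were chosen from general knowledge with earlier results of these data known, and 3 further genes are not reported here. Named genes were the 10 markers, listed genes of at least 0.1 FPKM, Dhx9 and Xist, and the 3 genes most alike to each marker. Listed genes below that level and genes that overlap a marker were named after their values were seen. All list genes came from GENCODE symbols matched by Ensembl identifier. Tested on simulated data, the fit called 158 of 188 changed genes (84.0%), with 0 of the wrong sign and 1 false call among 17890 genes. The simulated noise was normal and independent between genes, with the WT spread in both groups and changes of a single size. In the data the spread differs between labels and genes vary together, so these rates need not hold there. Python 3.11.15 with scipy 1.17.1 was used for the rest.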

Additional observations from a re-analysis of the deposited data

Results flagged for a closer look

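Among the 20 groups formed by 10 markers and 2 labels, 0 had a library far enough from the other 4 to be flagged by Dixon's criterion, where 1 would be by chance.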

How the results depend on the processing

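Over the 217 values of single markers under an alternative, 203 kept their direction and their side of the threshold, 7 were no longer called, 2 became called and 5 turned sign. The sign turned for markers that were not called, Cd48 (0.061 under median-ratio scaling, from -0.17 to 0.29 when single libraries were left out, above 0 without WT 1 or cKO 1, and 0.34 without both) and Eng (0.031 under median-ratio scaling). The number called lower was 6 in the report, 3 with a pseudocount of 1, 4 with quantile normalization or a mean of at least 1 FPKM, and 5 in libraries with Xist under 1 FPKM or with Xist as a covariate, where Slamf1 was lost. With a pseudocount of 1, Procr (-0.62), Slamf1 (-0.99) and Fgd5 (-0.19) lost the fold limit, since low values are compressed by it. Quantile normalization took Slamf1 (-1.003, adjusted p = 0.0828) and Fgd5 (-0.73) below the thresholds, and the cause was not tested. The median log2 fold change of the markers was -2.03 with a pseudocount of 0.01, -0.71 with one of 1 and -0.93 after quantile normalization, and from -1.70 to -1.10 when single libraries were left out, with 6 to 7 called lower. At a mean of at least 1 FPKM, 7 markers were tested and 3 had groups that do not overlap. On adjusted p alone 7 were lower, Tek being added. Without WT 1 and cKO 1 there were 6 lower and 8 with groups that do not overlap, Slamf1 and Eng being added.

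Deviations of same-numbered libraries were weakly correlated, between -0.0103 and 0.117 for the 5 numbers, although 3 of 5 matched best with their own. These values do not settle whether replicate numbers pair the libraries. With the replicate block 6 markers were lower, 0 higher and 6 without overlap, and the median was -1.41. Over all genes, 862 were called higher and 3153 lower. These counts were 356 and 1486 with a pseudocount of 1, 462 and 1827 at a mean of at least 1 FPKM, 541 and 2347 in libraries with Xist under 1 FPKM, and 1581 and 2245 after quantile normalization, which moved the share of higher calls from 21.5% to 41.3% and the median of all genes from -0.11 to 0.10. Depth limits Procr and Fgd5, at 3 fragments or fewer and 5 or fewer in each library labelled cKO.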

Other observations

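Levels were also set against that of Kit in the same library. The ratio of Cd34 to Kit was between 0.515 and 0.674 in WT and between 0.0518 and 0.235 in the libraries labelled cKO, and that of Cd27 to Kit between 0.234 and 0.317 against between 0.0059 and 0.0468. For both, and for Procr and Fgd5, the ranges did not overlap. Esam, whose levels were separated between groups, overlapped once set against Kit. Its ratio was between 0.0299 and 0.162 in WT and between 0.0148 and 0.0352 in the libraries labelled cKO. The ratio of Slamf1 to Kit overlapped as well. The ratio of Eng to Kit was higher in every library labelled cKO, between 0.757 and 1.16 against between 0.412 and 0.673 in WT, Kit being lower there while Eng was not called. The ratio of Tek to Kit overlapped, with medians of 0.0263 in WT and 0.0261 in the libraries labelled cKO, although all 5 Tek levels were below those of WT. That of Cd48 to Kit overlapped through cKO 1 alone, with medians of 1.69 and 3.49.

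Set against Ptprc, whose fitted change (-1.72 on the log2 scale) was larger than that of Kit (-0.86), Cd34 and Cd27 were again lower without overlap and Eng was higher, between 4.03 and 8.33 against between 1.21 and 2.43. The ratios of Procr, Fgd5 and Esam to Ptprc overlapped between groups. That of Cd48 to Ptprc did too, with medians of 6.10 in WT and 21.6 in the libraries labelled cKO. The ratio of Slamf1 to Ptprc had nearly equal medians, 0.278 in WT and 0.277 in the libraries labelled cKO. These ratios are descriptions with no test.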
